A study of Mus musculus with 36 samples.

Results

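The collagen genes of visceral white adipose tissue (visWAT, here epididymal fat) and liver were examined across diet and adipocyte *Mlkl* genotype. They were chosen by name alone, as the protein-coding genes whose symbol is Col, a number, the letter a and a further number, each of which encodes 1 alpha chain of a collagen. This gave 44 genes of the 56748 in the expression table, 21970 of which are protein coding. By the structure they build, 11 encode fibrillar chains, 6 basement membrane (type IV) chains, 6 beaded filament (type VI) chains, 9 chains of FACITs (collagens that sit on the surface of fibrils), 2 multiplexins, 3 network-forming chains, 4 transmembrane chains and 3 other chains.

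Collagens are secreted as triple helices of alpha chains, which are hydroxylated, glycosylated and folded in the endoplasmic reticulum, cleaved outside the cell and cross-linked into fibrils or sheets. In fat, each adipocyte is wrapped in a basement membrane of type IV collagen, with types I, III, V and VI in the matrix between cells, and a denser interstitial matrix is a known feature of obese fat. In liver, hepatic stellate cells are the main source of fibrillar collagen, while hepatocytes are known to make the multiplexin type XVIII, whose C-terminal fragment is endostatin.

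RNA was sequenced from visWAT and liver of the same 18 male mice, with 1 library per mouse and tissue, 36 in all and none pooled. All mice, on a C57BL/6J background per the study's methods, carried loxP-flanked *Mlkl* alleles. *Mlkl* encodes the membrane-permeabilizing protein of necroptosis, a lytic form of cell death. MlklAdi-KO mice (KO) also carried a Cre transgene, named Adipo-Cre in the study's methods, to delete *Mlkl* in mature adipocytes. By this design the other cells of fat and the liver kept *Mlkl*. Wild-type mice (WT) were littermates without Cre. From 16 weeks of age their feed for the next 16 weeks was either normal chow (normal chow diet, NCD) or rich in fat (high-fat diet, HFD). The groups were WT on NCD (mice 165, 180, 182 and 183), KO on NCD (166, 179, 197 and 199), WT on HFD (154, 155, 161, 162 and 164) and KO on HFD (151, 152, 153, 156 and 157). Values listed for a group follow this order of mice.

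Levels are FPKM as deposited, which divide the fragments on a gene by its length and by a size of the library, and they can be compared between genes. Libraries had 20875463 to 30322171 reads on genes. Differences are log2 fold changes of FPKM + 1 from limma, a pseudocount that understates the change of low genes. A gene was tested in a comparison when its mean was at least 0.5 FPKM over the libraries compared, and called at a Benjamini-Hochberg adjusted p under 0.05 over all genes tested. In these bulk tissues, fewer cells of a type and less RNA per cell cannot be told apart.

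Some libraries stood apart. Summed adipocyte markers were 4279 to 8292 FPKM in visWAT and 5.47 to 99.9 FPKM in liver, and hepatocyte markers 42365 to 66255 FPKM in liver and 23.0 to 1975 FPKM in visWAT. *Mlkl* itself was 5.11, 4.63, 2.29 and 3.91 FPKM in visWAT of WT mice on NCD and 1.96 to 2.49 FPKM in KO mice on NCD, so the library labelled WT NCD mouse 182 lay within the KO range. On HFD it was 4.58 to 6.28 FPKM in WT and 2.32 to 2.72 FPKM in KO visWAT, without overlap. The visWAT library of WT NCD mouse 183 held 17.5% of its reads on genes of the seminal vesicle, and its smooth muscle markers summed to 446 FPKM. The liver library of mouse 182 had stellate cell markers of 55.0 FPKM, against 22.0 to 30.3 FPKM in the other NCD-fed mice. All were kept under their labels, and values without mouse 182 or 183 are given beside the results that rest most on them.

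Collagens made up a larger part of the visWAT than of the liver transcriptome. Their mean share of summed FPKM in visWAT was 0.195% (WT) and 0.253% (KO) on NCD and 0.555% and 0.469% on HFD. In liver the group means were 0.0492% to 0.0571%. Summed over the 44 genes, visWAT held 586 ± 121 FPKM in WT and 634 ± 40.9 FPKM in KO mice on NCD, and 1302 ± 61.7 and 1172 ± 339 FPKM on HFD (mean ± SD, n = 4, 4, 5 and 5 mice), while liver libraries ranged from 227 to 341 FPKM. In visWAT 21 collagens averaged at least 1 FPKM and 14 at least 10 FPKM, compared with 14 and 2 in liver. The 4 most abundant collagens supplied 50.3% to 58% of visWAT collagen FPKM and 64.2% to 93.7% in liver. All 24 collagens tested differed between the tissues of the same mice, 20 higher in visWAT and 4 higher in liver (limma with mouse as a block). *Col4a5*, *Col4a6*, *Col6a5*, *Col6a6*, *Col8a1*, *Col23a1* and *Col28a1* passed the filter only through visWAT, and *Col13a1* and *Col27a1* only through liver. Their means in the other tissue were below the filter, so their direction largely follows from how they passed. The counts of directions therefore describe the genes tested. Between these tissues 85.3% of all genes tested passed, and 41.6% were higher in visWAT, so that a call says little about collagens in particular.

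The 4 collagens with more RNA in liver included its dominant chain. *Col18a1*, encoding type XVIII collagen, reached 230.2, 220.5, 182 and 215 FPKM in liver of WT mice on NCD, compared with 29.6, 18.9, 16.5 and 18.8 FPKM in their visWAT. Each liver exceeded every visWAT library of the group, and the log2 difference of visWAT from liver over all mice was -2.73 ± 0.094 (estimate ± SE, adjusted p = 2.23e-16, limma with Benjamini-Hochberg adjustment). This single gene supplied 53.4% of liver collagen FPKM in mouse 182 and 71.8% to 84.7% in all other livers, but 2.35% to 5.28% in visWAT. *Col27a1*, a fibrillar-type chain known from cartilage, was also lower in visWAT (-2.34), as were the transmembrane *Col13a1* (-0.80) and the FACIT *Col14a1* (-0.34, adjusted p = 0.0407, limma). The difference of *Col14a1* turned to 0.52 when FPKM were rescaled to an equal sum per library, a rescaling that moved the median of all genes to 0.73, and its direction is therefore not settled. On the log2(FPKM + 1) scale the largest differences in favour of visWAT were those of *Col6a1* (4.79), *Col6a2* (4.78), the multiplexin *Col15a1* (4.76) and *Col3a1* (4.61). In proportion of mean FPKM, *Col6a5* (11.5 in visWAT and 0.0328 in liver, log2 difference 3.46) and *Col28a1* (1.14 and 0.0129, log2 difference 1.06) differed more. The pseudocount understates the change of such genes. The others of the main chains were at 4.04 for *Col1a1*, 4.12 for *Col1a2*, 3.39 for *Col5a1*, 3.22 for *Col5a2*, 2.46 for *Col5a3*, 4.28 for *Col4a1*, 4.46 for *Col4a2* and 2.46 for *Col6a3*.

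*Col18a1* has transcription starts far apart, and the pair that RefSeq gives is shown here because both stand for the collagen that dominates liver. Each promoter is 250 bases before to 50 after the start, from the RefSeq table of build GRCm38.p6, with the position of its exact match in GRCm39. Capitals mark the letters of 3 motifs found on either strand, CCAAT for a CCAAT box, TATAAA for a TATA box and GGGCGG for a GC box, counted also where 2 motifs overlap.
Col18a1 promoter, chr10:76949490-76949789 (minus strand): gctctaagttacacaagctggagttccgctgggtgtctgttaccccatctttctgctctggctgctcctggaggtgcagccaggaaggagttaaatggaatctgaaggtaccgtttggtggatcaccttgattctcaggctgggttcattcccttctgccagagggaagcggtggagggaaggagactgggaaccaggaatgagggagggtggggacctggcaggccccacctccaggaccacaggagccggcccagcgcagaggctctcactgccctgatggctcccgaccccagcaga
Col18a1 promoter, chr10:77002315-77002614 (minus strand): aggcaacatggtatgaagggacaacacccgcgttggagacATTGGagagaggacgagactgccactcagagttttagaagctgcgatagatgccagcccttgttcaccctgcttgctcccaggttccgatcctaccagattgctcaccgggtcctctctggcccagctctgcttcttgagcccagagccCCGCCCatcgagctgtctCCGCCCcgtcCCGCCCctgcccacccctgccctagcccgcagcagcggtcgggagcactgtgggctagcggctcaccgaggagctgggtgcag
The first holds none of these letters and the second 1 CCAAT and 3 GC boxes. Gene-level values do not separate transcripts from these starts. Over the 38 promoter sequences found for 35 of the 44 genes, CCAAT was present in 34.2% (37.4% of all 32851 promoters in the table), TATAAA in 13.2% (13.6%) and GGGCGG in 60.5% (35.7%). These matches describe the sequence only.

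**Figure D1:**
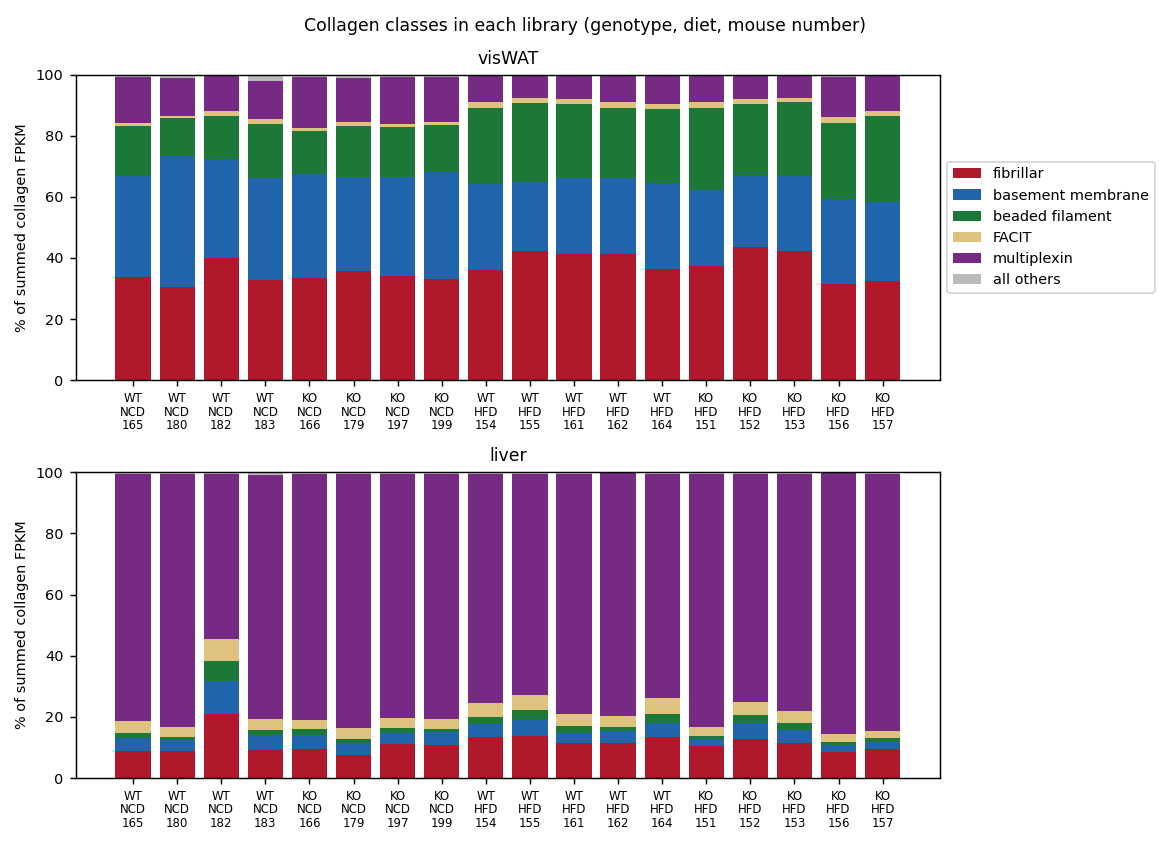
Share of summed collagen FPKM (percent, y axis) held by each structural class in each library (x axis, ordered by tissue and group). Multiplexins hold 54.1% to 85.3% of the total in liver and 7.18% to 16.7% in visWAT, and the beaded filament share of visWAT is 12.3% to 17.7% on NCD and 23.2% to 27.9% on HFD.

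The first question was how obesity on HFD changed visWAT collagens in WT mice. Of 27 collagens tested, 16 were higher and 1 lower on HFD, 63% in all, compared with 37.8% of all 14161 genes tested (21.9% higher and 15.8% lower). The higher genes included *Col1a1*, *Col1a2*, *Col3a1*, *Col5a1*, *Col5a2*, *Col6a1*, *Col6a2*, *Col6a3* and *Col16a1*, both major type IV chains and *Col18a1*, but not *Col5a3*. For 16 collagens every HFD-fed mouse exceeded every NCD-fed mouse, as did 19.6% of all genes. The median log2 fold change was 0.825 over the collagens tested and -0.00608 over all genes. Of the 44 collagens, 17 were below the filter here, and *Col12a1* and *Col27a1* passed it only through their levels on HFD. Both are among the 16 without overlap, so that these counts describe the genes tested. Without the library labelled mouse 182 and that of mouse 183, 18 collagens were called, 17 higher and 1 lower. The 17 include *Col27a1* (adjusted p = 0.0157, limma). Rescaling to an equal sum per library moved the median of all genes to 0.341 and left 17 called, all higher. The visWAT library of mouse 183 summed to 564718 FPKM, of which seminal vesicle genes held 247986 FPKM. The other WT mice on NCD summed to 243503 to 309820 FPKM. The part of that library in the shift was not tested.

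Fibrillar collagens, the rope-like scaffold of connective tissue, rose in 5 of 7 tested. *Col1a1* (alpha 1 chain of type I, chromosome 11 of GRCm39, 94827050 to 94843868, plus strand) was 27.3, 17.3, 34.8 and 21.3 FPKM on NCD and 95.2, 126, 120.3, 107 and 101 FPKM on HFD. The lowest HFD-fed mouse was far above the highest NCD-fed mouse, mouse 182, and the log2 fold change was 2.12 ± 0.19 (adjusted p = 2.42e-05, limma with Benjamini-Hochberg adjustment). *Col1a2*, encoding the alpha 2 chain of type I, went from 22.8 ± 4.81 to 76.1 ± 9.49 FPKM (mean ± SD, n = 4 and 5; log2 fold change 1.71, SE 0.15, adjusted p = 1.96e-05, limma). *Col3a1*, encoding type III collagen of distensible tissues and early scars, was 71.3, 53.7, 75.5 and 48.1 FPKM on NCD and 170.2, 246, 214, 201 and 185 FPKM on HFD. These groups did not overlap either (log2 fold change 1.71, SE 0.16, adjusted p = 4.19e-05, limma). *Col5a1* and *Col5a2*, whose type V chains start fibrils and limit their width, rose by 1.09 and 1.26 (adjusted p = 0.000635 and 0.000176, limma). *Col5a3*, the third chain of that type, did not pass, although it was among the most abundant collagens of visWAT. It was 75.1, 55.6, 108 and 34.7 FPKM on NCD and 76.3, 61.4, 63.9, 69.2 and 75.7 FPKM on HFD (log2 fold change 0.13, SE 0.27, adjusted p = 0.735, limma). The HFD values lay within the NCD range, whose ends were the libraries of mice 182 and 183, and without mouse 183 the estimate was -0.15. *Col27a1* reached 0.606 FPKM on HFD and 0.410 FPKM on NCD and did not pass (adjusted p = 0.0734, limma).

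The promoters of *Col1a2* and *Col3a1* are shown as those of the 2 most abundant fibrillar genes that rose and have an entry in the RefSeq table, with capitals as above.
Col1a2 promoter, chr6:4505368-4505667 (plus strand): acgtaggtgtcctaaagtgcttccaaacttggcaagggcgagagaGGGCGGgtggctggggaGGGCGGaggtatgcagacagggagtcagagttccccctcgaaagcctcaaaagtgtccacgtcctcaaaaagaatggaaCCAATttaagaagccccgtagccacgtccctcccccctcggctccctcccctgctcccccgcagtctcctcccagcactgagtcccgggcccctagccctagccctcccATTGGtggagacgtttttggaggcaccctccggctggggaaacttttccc
Col3a1 promoter, chr1:45350448-45350747 (plus strand): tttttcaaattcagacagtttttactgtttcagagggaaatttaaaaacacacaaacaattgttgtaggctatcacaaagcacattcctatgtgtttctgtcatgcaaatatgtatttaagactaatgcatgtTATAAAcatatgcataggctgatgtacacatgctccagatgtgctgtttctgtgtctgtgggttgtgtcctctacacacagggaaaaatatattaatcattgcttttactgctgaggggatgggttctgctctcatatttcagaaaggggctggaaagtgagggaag
The window of *Col1a2* holds 2 CCAAT and 2 GC boxes and that of *Col3a1* 1 TATA box, so the windows have no kind of box in common. *Col3a1* lies 24614 bases from *Col5a2*, another fibrillar gene that rose.

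Type IV chains, which form the sheet under epithelia and around adipocytes, rose in 2 of 4 tested. *Col4a1* was the most abundant collagen of visWAT over all mice, at 128, 128, 116 and 77.6 FPKM on NCD and 189, 158, 162, 151 and 196 FPKM on HFD. The groups did not overlap, and the estimate was below those of the 5 fibrillar genes that rose (log2 fold change 0.63, SE 0.17, adjusted p = 0.015, limma). *Col4a2*, its partner in the common heterotrimer, was 101, 101, 96.2 and 61.5 FPKM on NCD and 174, 146, 158, 142 and 178 FPKM on HFD (log2 fold change 0.84, SE 0.16, adjusted p = 0.0029, limma). *Col4a5* and *Col4a6*, neighbours 1308 bases apart that encode the minor chains, had log2 fold changes of 0.18 and -0.30 and did not pass (adjusted p = 0.315 and 0.15, limma).

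*Col4a1* (minus strand) starts at 11362826 and *Col4a2* (plus strand) at 11362805, so that the first bases of the 2 genes overlap. Their sequences are shown because the starts used by RefSeq are 21 bases apart on opposite strands and the windows share 78 bases.
Col4a1 promoter, chr8:11362777-11363076 (minus strand): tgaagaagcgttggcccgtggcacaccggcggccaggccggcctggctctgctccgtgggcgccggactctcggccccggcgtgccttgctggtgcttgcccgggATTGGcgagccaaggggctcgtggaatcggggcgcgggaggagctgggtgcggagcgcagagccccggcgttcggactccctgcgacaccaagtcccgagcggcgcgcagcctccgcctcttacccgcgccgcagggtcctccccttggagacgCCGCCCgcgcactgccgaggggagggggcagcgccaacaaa
Col4a2 promoter, chr8:11362555-11362854 (plus strand): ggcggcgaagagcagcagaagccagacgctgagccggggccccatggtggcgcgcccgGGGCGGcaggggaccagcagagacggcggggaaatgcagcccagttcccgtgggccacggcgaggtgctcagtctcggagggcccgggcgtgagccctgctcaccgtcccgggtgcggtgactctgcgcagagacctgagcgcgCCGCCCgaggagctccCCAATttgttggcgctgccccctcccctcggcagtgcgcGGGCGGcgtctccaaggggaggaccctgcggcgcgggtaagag
The window of *Col4a1* holds 1 CCAAT and 1 GC box and that of *Col4a2* 1 CCAAT and 3 GC boxes. Whether reads were counted by strand is not given in the sources used here, so reads at the very start of this pair cannot be told apart.

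Beaded filament chains rose in 4 of 5 tested. Type VI collagen forms microfilaments close to cells, and its alpha 3 chain is the precursor of endotrophin. *Col6a1* was 63.6, 32.8, 48.7 and 41.9 FPKM on NCD and 182, 198, 178, 156 and 179 FPKM on HFD (log2 fold change 1.95, SE 0.17, adjusted p = 2.48e-05, limma). Every HFD-fed mouse had more than every NCD-fed mouse, and on HFD *Col6a1* was of the same order as *Col3a1* and *Col4a1*. *Col6a2* rose by 1.97 ± 0.16 (adjusted p = 1.46e-05) and *Col6a3* by 1.73 ± 0.11 (adjusted p = 2.98e-06, both limma). *Col6a3* went from 6.18, 5.40, 6.88 and 6.07 to 23.7, 25.0, 20.5, 18.6 and 25.8 FPKM, with neither group overlapping the other. *Col6a5*, one of the chains that can take the place of alpha 3, was 9.86, 7.26, 4.34 and 6.75 FPKM on NCD and 19.7, 16.8, 16.3, 15.0 and 18.5 FPKM on HFD (log2 fold change 1.22, SE 0.18, adjusted p = 0.000621, limma), whereas *Col6a6*, 27917 bases away, was 2.65 ± 0.474 and 2.93 ± 0.344 FPKM and did not pass (adjusted p = 0.407). As a share of collagen FPKM, beaded filament chains were 15.0% ± 2.42 on NCD and 24.5% ± 0.965 on HFD in WT, and basement membrane chains 35.5% ± 4.93 and 25.7% ± 2.38 (SD, n = 4 and 5).

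Among FACITs, *Col16a1* and *Col14a1* rose. *Col16a1*, which is found on fibrils and near cells, was 2.27, 1.12, 1.96 and 3.58 FPKM on NCD and 11.7, 11.8, 11.5, 11.6 and 10.5 FPKM on HFD (log2 fold change 1.99, SE 0.18, adjusted p = 3.05e-05, limma). *Col14a1*, a FACIT of dense fibrils, rose by 1.25 (adjusted p = 0.00843) from 3.42, 1.95, 7.94 and 2.20 to 9.56, 10.3, 10.8, 9.12 and 7.64 FPKM, and here the library labelled mouse 182 exceeded the lowest HFD-fed mouse. *Col12a1*, which passed the filter only through its level on HFD, was 0.307 ± 0.253 FPKM on NCD and 1.10 ± 0.110 FPKM on HFD, and its call is part of the counts above. Of the multiplexins, *Col18a1* was 39.4, 33.4, 35.0, 36.7 and 40.6 FPKM on HFD, all above the NCD values given earlier (log2 fold change 0.82, SE 0.15, adjusted p = 0.00247, limma), and *Col15a1*, found next to basement membranes, did not pass (55.5 ± 17.0 and 69.6 ± 9.08 FPKM, adjusted p = 0.176). The network chain *Col8a1* of vessel walls rose by 0.88 (adjusted p = 0.000106), and its partner *Col8a2* did not pass (-0.035, adjusted p = 0.867). The transmembrane *Col23a1* was the only collagen called lower, with 2.07, 1.80, 0.907 and 1.87 FPKM on NCD and 1.16, 0.621, 0.878, 0.984 and 0.768 FPKM on HFD (log2 fold change -0.48, SE 0.15, adjusted p = 0.0271, limma). In that case the library labelled mouse 182 lay among the HFD-fed mice, and the call was lost without any 1 of mice 165, 180, 183, 155, 161 and 164 (adjusted p = 0.0519 to 0.0743, limma) and on the equal-sum scale.

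**Figure D2:**
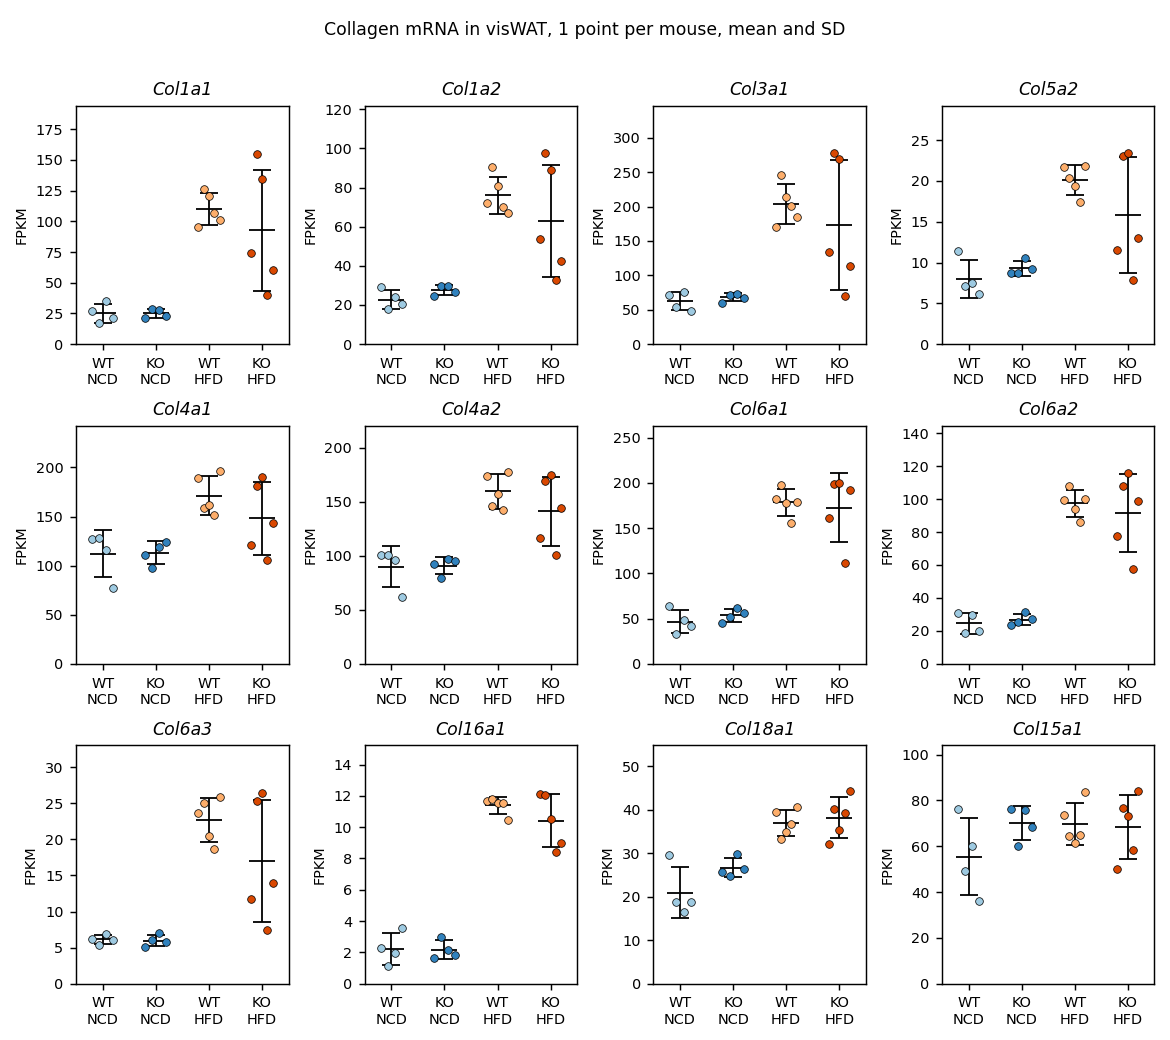
FPKM of collagens in visWAT (y axes, each panel with its own scale from 0) in the 4 groups (x axis). Points are mice and bars the mean ± SD (n = 4 or 5), with *Col1a1* at 17.3 to 34.8 FPKM on NCD and 95.2 to 126 FPKM on HFD in WT mice.

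**Figure D3:**
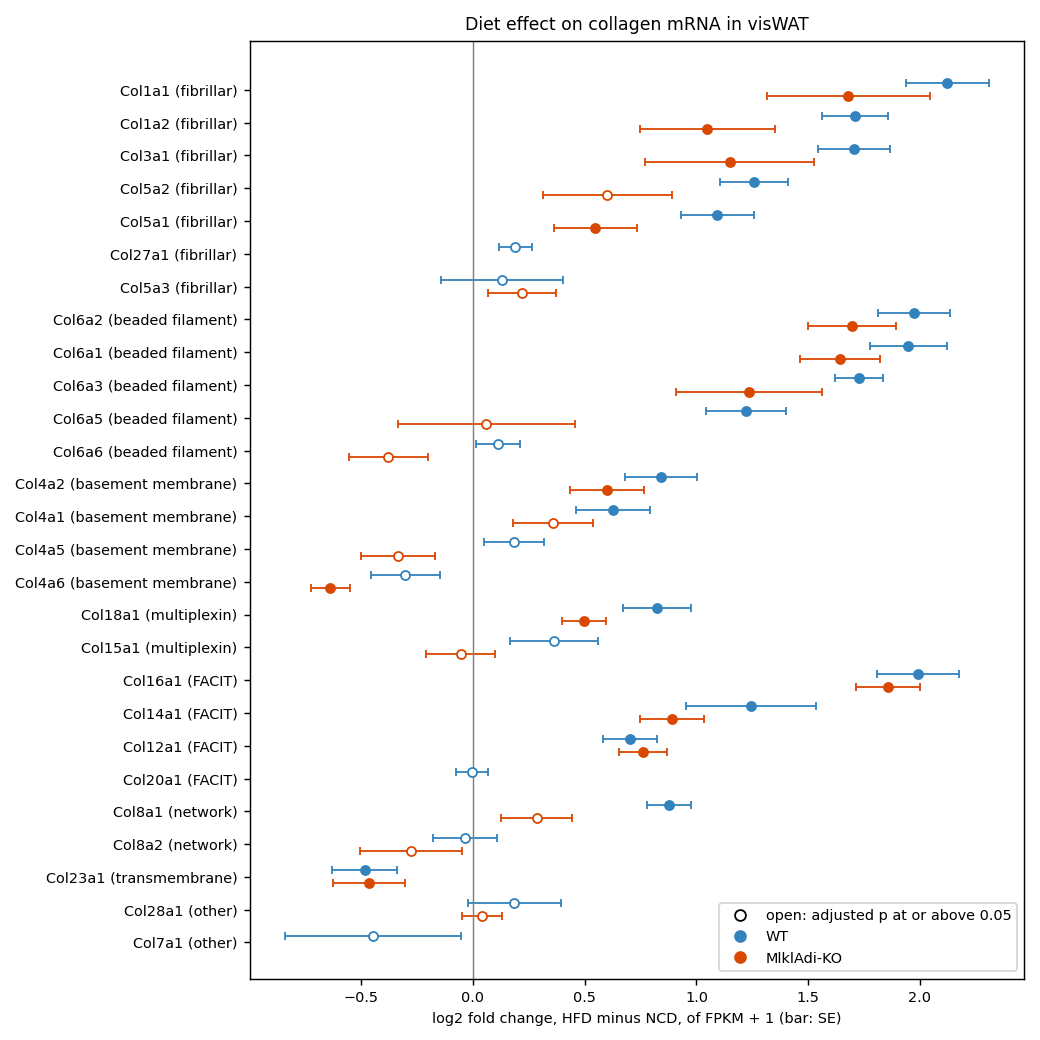
Log2 fold change of HFD against NCD in visWAT on the log2(FPKM + 1) scale (x axis) with its standard error for each tested collagen (y axis), in WT and KO mice, with filled symbols for genes called by limma. In WT mice the largest values are those of *Col1a1*, *Col16a1*, *Col6a1* and *Col6a2*.

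Some of the cell type marker lists also differed between diets. The 7 macrophage markers summed to 26.2 to 60.3 FPKM in the 8 NCD-fed mice and 451 to 722 FPKM in WT mice on HFD, and 5 of 6 tested were higher. The 8 markers of fibroblasts and progenitors, which are the known source of fibrillar collagen, summed to 104 to 140 FPKM on NCD and 177 to 225 FPKM on HFD over both genotypes, with 6 of 8 higher in WT. Of 6 adipocyte markers 1 was higher and 3 lower, of 6 endothelial markers 1 higher and 3 lower, of 6 mural and smooth muscle markers 2 lower, and of 5 mesothelial markers none was called. Over all genes tested in WT visWAT, 21.9% were higher and 15.8% lower. The macrophage marker *Clec4f*, of Kupffer cells, was below the filter. The part of cell numbers in the collagen results was not tested.

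The same diet comparison in KO mice gave 12 collagens higher and 2 lower of 24 tested (58.3%), compared with 43.7% of all 14026 genes (23.3% higher, 20.3% lower). The median log2 fold change was 0.523 over the collagens and 0.00941 over all genes, and in 10 collagens, against 20.1% of all genes, every HFD-fed mouse was above every NCD-fed mouse. *Col1a1* was 21.4, 28.4, 27.8 and 22.9 FPKM on NCD and 73.8, 155, 134, 39.8 and 60.6 FPKM on HFD (log2 fold change 1.68, SE 0.36, adjusted p = 0.00584, limma). The groups did not overlap, but the HFD-fed mice were spread from 39.8 FPKM in mouse 156 to 155 FPKM in mouse 152. *Col3a1* was 60.4, 72.1, 72.6 and 67.0 and 134, 277, 268, 70.1 and 114 FPKM (log2 fold change 1.15, SE 0.38, adjusted p = 0.0343, limma). Its call was lost when any 1 of mice 166, 179, 197, 199, 151, 152 and 153 was left out (adjusted p = 0.0558 to 0.0813, limma). That of *Col5a1* was lost without any 1 of mice 166, 179, 197, 199, 152, 153 and 157 (0.0560 to 0.0873).

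Of 5 beaded filament chains tested, 3 rose in KO mice. *Col6a1* was 45.2, 51.5, 61.5 and 56.8 FPKM on NCD and 161, 199, 200.1, 111 and 192 FPKM on HFD (log2 fold change 1.64, SE 0.18, adjusted p = 0.00036, limma), *Col6a2* rose by 1.70 (adjusted p = 0.000434) and *Col6a3* by 1.23 (adjusted p = 0.014). *Col6a6* did not pass (-0.38, adjusted p = 0.109, limma), and neither did *Col6a5* in KO mice (8.57, 12.9, 10.2 and 6.10 FPKM on NCD and 8.21, 19.6, 16.6, 5.77 and 4.83 FPKM on HFD, log2 fold change 0.06, SE 0.39, adjusted p = 0.914, limma). Mice 152 and 153 lay above the NCD range and the other 3 HFD-fed mice within or below it. *Col16a1* was 1.66, 3.01, 2.15 and 1.84 and 12.1, 12.1, 10.5, 8.42 and 8.97 FPKM (log2 fold change 1.86, SE 0.14, adjusted p = 0.000121, limma), with every HFD-fed mouse well above the NCD-fed mice. The other genes called higher were *Col1a2* (1.05), *Col14a1* (0.89), *Col4a2* (0.60), *Col5a1* (0.55) and *Col18a1* (0.50). The count of 12 also holds *Col12a1*, at 0.186 ± 0.0250 and 1.02 ± 0.268 FPKM, which again passed the filter only through HFD.

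The remaining visWAT collagens of KO mice fell or did not pass. *Col4a6* fell, from 1.40, 1.56, 1.62 and 1.18 FPKM on NCD to 0.496, 0.831, 0.490, 0.523 and 0.50 FPKM on HFD without overlap, as for 18.3% of all genes (log2 fold change -0.64, SE 0.088, adjusted p = 0.000791, limma), and *Col23a1* was called lower (-0.47, adjusted p = 0.0411), a call lost without any 1 of mice 179, 197, 199, 151, 152, 153 and 157 (0.0713 to 0.101, limma). Not called were *Col4a1* (0.36, adjusted p = 0.131), *Col5a2* (0.60, adjusted p = 0.118), *Col5a3* (0.22, adjusted p = 0.264) and *Col15a1* (-0.054, adjusted p = 0.799). In these mice the macrophage markers summed to 361, 560.3, 639, 174 and 140.0 FPKM on HFD, so that mice 156 and 157 had the lowest sums, and 6 of 6 tested were higher than on NCD, as were 5 of 8 fibroblast markers. Over all genes tested in KO visWAT, 23.3% were higher. The part of these cell types in the result was not tested. That 16 collagens were called higher in WT and 12 in KO mice does not show a difference between genotypes, which is tested below.

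Ratios within a library do not depend on scaling between libraries, and 4 pairs of chains were compared per length over 8 comparisons of groups (32 two-sided exact permutation tests). None passed after Benjamini-Hochberg adjustment and 8 had an unadjusted exact p under 0.05, the smallest adjusted p being 0.0847 (exact p = 0.0159, the smallest that 5 against 4 mice allow). With these group sizes no ratio could pass by itself over 32 tests, even with full separation, so a miss does not show equal ratios. The groups did not overlap in 6 of the 32, all of them between diets. Among single genes tested by diet, 19.6% lay wholly above and 13.8% wholly below in WT visWAT, and 20.1% and 18.3% in KO visWAT. In KO liver these shares were 11.6% and 9.89%. A share for ratios of other gene pairs was not computed. In visWAT the ratio of *Col4a1* to *Col4a2* was 1.26, 1.27, 1.20 and 1.26 on NCD and 1.09, 1.08, 1.03, 1.07 and 1.10 on HFD in WT mice, and 1.24 ± 0.0449 and 1.05 ± 0.0352 in KO mice (SD, n = 4 and 5). The direction differed in liver of both genotypes. There it was 1.28 ± 0.130 on NCD and 1.65 ± 0.269 on HFD in WT mice, with overlap. In KO liver it was 1.14 ± 0.0712 on NCD and 1.38 ± 0.182 on HFD, without overlap. The ratio of *Col3a1* to *Col1a1* in visWAT was 2.54 ± 0.426 and 1.84 ± 0.0686 in WT and 2.73 ± 0.181 and 1.85 ± 0.0941 in KO mice on NCD and HFD. That of *Col1a1* to *Col1a2*, which form type I collagen in a fixed proportion of chains, was 0.875, 0.964, 0.930 and 0.868 in KO mice on NCD and 1.38, 1.59, 1.51, 1.22 and 1.43 on HFD. In WT mice it was 1.10 ± 0.240 on NCD and 1.45 ± 0.0874 on HFD, with overlap at the library labelled mouse 182 (1.454).

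The second question was whether loss of *Mlkl* in adipocytes changed visWAT collagens. On HFD 0 of 25 tested passed (limma, edgeR and DESeq2 each gave 0), where 0.0215% of all genes passed (0.00716% lower). An unadjusted p under 0.05 (limma) was reached by 3 of the 25 (*Col8a1*, *Col28a1* and *Col6a5*) and by 3003 of all 13963 genes, a larger share. *Col1a1* was 110.0 ± 13.0 FPKM in WT and 92.7 ± 49.5 FPKM in KO mice (SD, n = 5 each), a log2 difference of KO from WT of -0.41 ± 0.33 (adjusted p = 0.439, limma). The WT values lay within those of the KO mice, 2 of which were above the WT range and 3 below it. For *Col3a1*, *Col6a3* and *Col5a2* the differences were -0.41 ± 0.34, -0.53 ± 0.30 and -0.44 ± 0.26 (adjusted p = 0.466, 0.293 and 0.31). They were -0.38 for *Col1a2*, -0.25 for *Col5a1*, 0.17 for *Col5a3*, -0.24 for *Col4a1*, -0.20 for *Col4a2*, -0.077 for *Col6a1* and -0.13 for *Col6a2*. *Col15a1* and *Col18a1* had differences of -0.038 and 0.039, near 0 and with a sign that changed when 1 mouse was left out, as did those of *Col6a1* and *Col6a2* without mouse 156, and that of *Col18a1* also on the equal-sum scale. A p that misses the threshold at this spread does not show equal levels.

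Of the 3 genes at an unadjusted p under 0.05, *Col8a1* was 2.29, 2.95, 2.40, 2.16 and 2.21 FPKM in WT and 1.25, 2.65, 2.02, 1.29 and 1.22 FPKM in KO mice (log2 fold change -0.37, SE 0.14, adjusted p = 0.221, limma), and KO mouse 152 lay in the WT range. *Col6a5* was 19.7, 16.8, 16.3, 15.0 and 18.5 FPKM in WT mice, while in KO mice the values given above for mice 152 and 153 were within that range and those of the 3 others below it (log2 fold change -0.78, SE 0.33, adjusted p = 0.224, limma).

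KO mice on HFD varied more among themselves than WT mice did. The SD of log2(FPKM + 1) was larger in KO mice for 23 of 25 collagens (92%), as it was for 72.4% of all 13963 genes, with medians of 0.333 and 0.145 over the collagens in KO and WT mice and 0.154 and 0.106 over all genes. Summed over the fibrillar chains, KO mice had 363, 666, 636, 234 and 362 FPKM and WT mice 472, 575, 532, 496 and 489 FPKM, so that the WT mice lay between 2 high and 3 low KO mice. Mouse 152 was the highest KO mouse for 13 collagens and mouse 153 for 7, and mouse 156 was the lowest for 14. Mice 151, 156 and 157 had lower macrophage sums than 152 and 153. Adipocyte markers of the KO mice summed to 7447, 5107, 4798, 7629 and 8292 FPKM, highest in mice 151, 156 and 157, and to 4937, 4298, 4669, 5173 and 4795 FPKM in WT mice. The part of these cells in the spread was not tested.

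**Figure D4:**
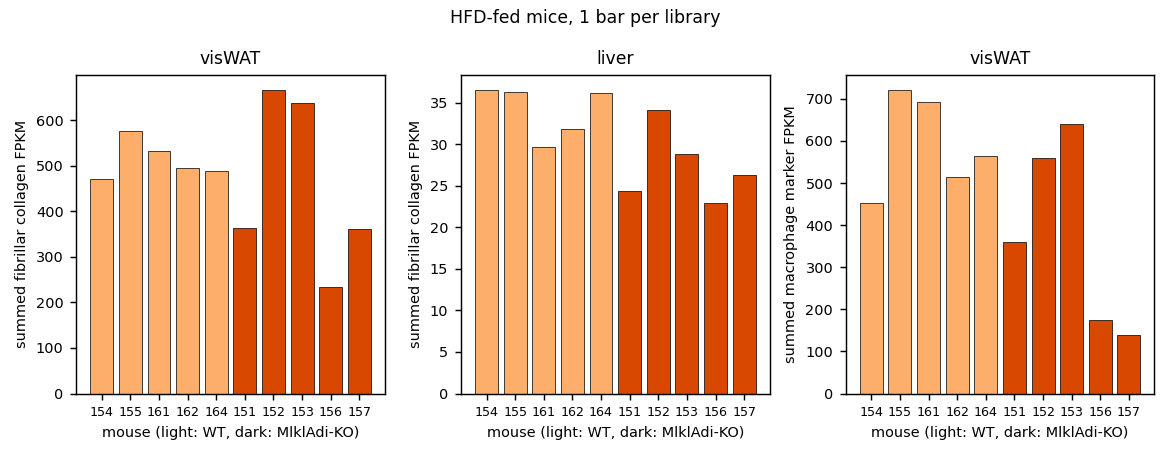
Each bar is 1 HFD-fed mouse (x axis, light for WT and dark for KO). The y axes give summed fibrillar collagen FPKM in visWAT and in liver and summed macrophage marker FPKM in visWAT, each from 0, and KO mice span 234 to 666, 22.9 to 34.1 and 140.0 to 639 FPKM in the 3 panels.

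On NCD 0 of 25 collagens passed between genotypes, edgeR and DESeq2 called 0, and 0% of all 14063 genes passed. An unadjusted p under 0.05 (limma) was reached by 0 of the 25 and by 528 of all genes. Log2 differences of KO from WT were 0.034 for *Col1a1*, 0.28 for *Col1a2*, 0.15 for *Col3a1*, 0.30 for *Col5a1*, 0.22 for *Col5a2* and 0.077 for *Col5a3*. They were 0.031 and 0.04 for *Col4a1* and *Col4a2*, 0.23, 0.15 and -0.034 for *Col6a1*, *Col6a2* and *Col6a3*, and 0.38 and 0.37 for *Col15a1* and *Col18a1*. Without mouse 183 the sign turned for *Col1a1* (-0.03), *Col5a3* (-0.20), *Col4a1* (-0.13) and *Col4a2* (-0.13), and without mouse 182 for *Col6a3* (0.02). Rescaling to an equal sum moved the median of all genes in this comparison, which includes mouse 183, to 0.29. Estimates of this size therefore depend on the scaling. The test of whether the diet effect differed by genotype gave 0 of 24 (0 by edgeR and DESeq2, and 0% of all 14136 genes). At an unadjusted p under 0.05 it gave 5 of the 24, namely *Col8a1*, *Col6a5*, *Col6a6*, *Col4a5* and *Col5a1*, and 1867 of all 14136 genes, a smaller share. For *Col6a5* the diet effect in KO minus that in WT mice was -1.16 ± 0.46 (estimate ± SE on the log2 scale, adjusted p = 0.35, limma). Rescaling to an equal sum moved the median of all genes in this test, which also includes mouse 183, to -0.35, beside estimates of -0.49 for *Col6a6* and -0.52 for *Col4a5*. The estimates of the main chains were -0.44 for *Col1a1*, -0.66 for *Col1a2*, -0.56 for *Col3a1*, -0.55 for *Col5a1*, -0.66 for *Col5a2*, 0.088 for *Col5a3*, -0.27 for *Col4a1* and -0.24 for *Col4a2*. For the rest of them they were -0.30 for *Col6a1*, -0.28 for *Col6a2*, -0.49 for *Col6a3*, -0.42 for *Col15a1* and -0.33 for *Col18a1*.

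The machinery that makes collagen was followed by lists written from general knowledge. In WT visWAT all 5 genes of propeptide cleavage tested rose on HFD, among them *Pcolce2*, an enhancer of the C-proteinase (2.05), and *Bmp1*, the C-proteinase itself (1.05). All 6 crosslinking genes rose, led by the lysyl oxidase *Loxl1* (1.66). Of 14 enzymes of hydroxylation and glycosylation 8 rose, including the lysyl hydroxylase *Plod1* (1.02), and 1 fell, the galactosyltransferase *Colgalt2* (-0.39). Of 10 chaperone and secretion genes 4 rose, including the collagen chaperone *Serpinh1* (0.71), and *Mia2* fell (-0.33). Of 12 fibril partners 11 rose, with the proteoglycan *Lum* at 2.46, and of 8 receptor and uptake genes 6 rose, with the endocytic collagen receptor *Mrc2* the largest rise of these lists. *Mrc1* (1.51) and *Lair1* (2.14) in the last list are known from macrophages. In KO visWAT the counts were 4 of 5, 5 of 6, 8 of 13, 5 of 10 with 1 lower, 6 of 12 and 4 of 8, in the same order of lists, and between genotypes 0 passed in any list. In all genes tested, 37.8% passed in WT and 43.7% in KO mice.

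In liver of WT mice 2 of 17 collagens passed between diets, 1 higher and 1 lower, compared with 25.3% of all 13330 genes, and in KO mice 1 was higher and 1 lower of 17, compared with 22.2% of all 13149 genes. *Col27a1* (chromosome 4, 63132241 to 63253228, plus strand of GRCm39) was the gene called higher in each. It was 4.71, 3.48, 1.84 and 4.76 FPKM in WT mice on NCD and 12.5, 7.50, 9.36, 10.7 and 7.95 FPKM on HFD (log2 fold change 1.21, SE 0.22, adjusted p = 0.00421, limma). In KO mice it was 3.68, 1.95, 4.40 and 4.20 and 11.3, 7.80, 8.90, 10.2 and 12.6 FPKM (log2 fold change 1.31, SE 0.19, adjusted p = 0.00139, limma). No NCD-fed mouse reached the lowest HFD-fed mouse in either genotype, which held for 13.3% of all genes in WT and 11.6% in KO mice, and without mouse 182 the WT value was 0.99 (adjusted p = 0.00234, limma). Its promoter is shown as that of the collagen with the largest diet response in liver, and it holds 2 GC boxes and none of the other letters.
Col27a1 promoter, chr4:63133399-63133698 (plus strand): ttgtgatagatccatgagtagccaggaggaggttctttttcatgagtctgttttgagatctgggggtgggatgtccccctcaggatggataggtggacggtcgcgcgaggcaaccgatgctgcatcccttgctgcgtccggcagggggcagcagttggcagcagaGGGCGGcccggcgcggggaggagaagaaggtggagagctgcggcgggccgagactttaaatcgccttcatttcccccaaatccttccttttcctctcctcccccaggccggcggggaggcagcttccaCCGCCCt

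*Col15a1*, the second multiplexin, was lower on HFD in WT liver, 1.61, 1.52, 2.18 and 1.88 FPKM on NCD and 0.942, 1.31, 1.19, 0.997 and 1.06 FPKM on HFD (log2 fold change -0.41, SE 0.089, adjusted p = 0.00909, limma), without overlap, as for 11.6% of all genes. The call was lost with all 4 groups in one fit (adjusted p = 0.134) and without mice 182 and 183 (0.0641, limma). In KO liver it was 2.89, 2.53, 0.908 and 1.77 and 0.578, 1.22, 0.899, 1.60 and 2.13 FPKM and did not pass (log2 fold change -0.39, SE 0.24, adjusted p = 0.281, limma). *Col5a3* was called lower in KO liver, 12.8, 11.1, 18.7 and 15.6 FPKM on NCD and 8.93, 10.7, 9.87, 8.54 and 9.50 FPKM on HFD (log2 fold change -0.54, SE 0.13, adjusted p = 0.0164, limma), again without overlap, as for 9.89% of all genes. In WT liver the estimate of *Col5a3* was -0.15 (adjusted p = 0.0615, limma), and there too the groups did not overlap, as for 11.6% of all genes. It was called without mouse 183 (adjusted p = 0.0494) and not without mouse 182 (0.105, both limma). *Col18a1*, the dominant chain, did not change measurably with diet (-0.059 ± 0.077 in WT and 0.015 ± 0.086 in KO mice, adjusted p = 0.618 and 0.921, limma).

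The fibrillar genes of WT liver depended on 1 library. *Col1a1* was 1.43, 1.17, 17.3 and 1.70 FPKM on NCD, where the high value is that of mouse 182, and 3.56, 4.40, 1.95, 2.61 and 5.32 FPKM on HFD. With all mice the log2 fold change was 0.13 ± 0.59 (adjusted p = 0.9), and without mouse 182 *Col1a1* and *Col1a2* were called higher (0.86 and 0.55, adjusted p = 0.0232 and 0.0395, limma), which with *Col27a1* and *Col15a1* made 4 calls. Without mice 182 and 183 there were 2 calls, *Col1a1* and *Col27a1*. *Col3a1* was 3.16, 2.48, 24.2 and 3.52 and 4.70, 6.73, 2.94, 3.75 and 6.41 FPKM and was not called with mouse 182 (-0.16, adjusted p = 0.867) or without it (0.51, adjusted p = 0.122). The summed stellate markers of that library are given above, and their part in its collagen levels was not tested. In WT mouse 155 on HFD, mesothelial and cholangiocyte markers summed to 37.4 and 44.6 FPKM, the highest of the livers, and without mice 182 and 155 there were 3 calls. In KO mice, which do not include these libraries, *Col1a1* was 2.18, 1.16, 1.09 and 0.760 and 0.923, 4.45, 3.31, 0.718 and 0.820 FPKM and did not pass (log2 fold change 0.27, SE 0.37, adjusted p = 0.649, limma). Mice 152 and 153 were above the NCD range and mouse 156 below it.

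The other panel genes of liver had no call between diets. In WT mice the log2 fold changes were -0.093 for *Col5a1*, -0.27 for *Col5a2*, -0.25 for *Col4a1*, -0.54 for *Col4a2*, 0.037 for *Col6a1*, -0.093 for *Col6a2* and -0.28 for *Col6a3*. Without mouse 182 they were 0.18 for *Col5a1*, 0.12 for *Col4a1*, -0.21 for *Col4a2*, 0.51 for *Col6a1*, 0.31 for *Col6a2* and 0.24 for *Col6a3*. *Col5a2* was then below the filter. In KO mice the log2 fold changes were 0.091 for *Col1a2*, -0.041 for *Col3a1*, -0.20 for *Col5a1*, -0.18 for *Col4a1*, -0.40 for *Col4a2*, -0.002 for *Col6a1*, 0.013 for *Col6a2* and 0.17 for *Col6a3*. *Col4a1* was 6.77, 5.37, 19.4 and 6.63 FPKM on NCD, with mouse 182 the highest, and 5.08 to 8.50 FPKM on HFD in WT mice, and *Col6a1* was 2.50, 1.30, 10.5 and 2.55 and 1.89 to 4.96 FPKM.

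**Figure D5:**
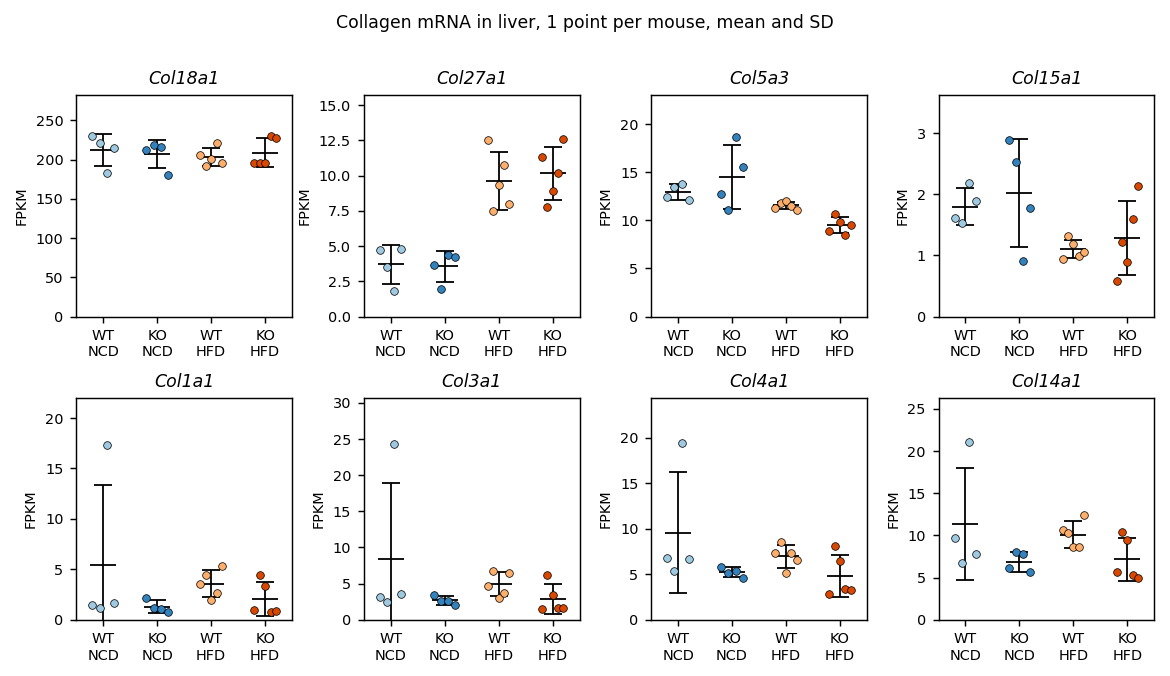
FPKM of collagens in liver (y axes, each panel with its own scale from 0) in the 4 groups (x axis). Points are mice and bars the mean ± SD (n = 4 or 5), cut at 0 where the SD exceeds the mean, and the *Col1a1* point at 17.3 FPKM is WT mouse 182.

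Between genotypes 0 of 16 liver collagens passed on HFD (limma and edgeR), where 0.197% of all 13215 genes did (0.0681% lower). An unadjusted p under 0.05 (limma) was reached by 7 of the 16, each lower in KO mice, and by 1664 of all genes, a smaller share. *Col5a3* came closest: every KO value listed above lay below every WT value, 11.3, 11.8, 12.1, 11.5 and 11.0 FPKM, as for 1.24% of all genes (log2 fold change -0.26, SE 0.058, adjusted p = 0.119, limma). DESeq2 on the recovered reads called it (-0.28, adjusted p = 0.0121) and *Col16a1* (-0.73, adjusted p = 0.0265). *Col16a1* was 0.903, 1.30, 0.961, 0.706 and 0.995 FPKM in WT and 0.544, 0.803, 0.579, 0.511 and 0.489 FPKM in KO mice, with overlap at KO mouse 152 (limma adjusted p = 0.229). For the other main chains tested the differences were -0.53 for *Col1a2*, -0.38 for *Col5a1*, -0.52 for *Col4a1*, -0.30 for *Col4a2*, -0.29 for *Col6a2*, -0.29 for *Col6a3*, 0.085 for *Col15a1* and 0.039 for *Col18a1*, the signs of *Col15a1* and *Col18a1* turning under 1 alternative each. *Col1a1*, *Col3a1* and *Col6a1* had differences of -0.71 ± 0.35, -0.70 ± 0.31 and -0.52 ± 0.24 (adjusted p = 0.449, 0.393 and 0.396). The SD was larger in KO than in WT mice for 12 of 16 collagens (75%), as for 66.1% of all genes, and mouse 152 was the highest KO mouse for 12 and mouse 151 the lowest for 9. Stellate cell markers summed to 42.7, 37.6, 32.7, 34.6 and 41.2 FPKM in WT and 23.5, 39.1, 35.7, 25.7 and 23.4 FPKM in KO livers on HFD. Macrophage markers summed to 40.4, 153, 55.1, 55.7 and 67.2 FPKM in KO livers, where mouse 152 was the highest, and 62.1, 72.0, 56.9, 60.0 and 76.9 FPKM in WT livers. Their part in these values was not tested.

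On NCD 0 of 19 liver collagens passed between genotypes, edgeR and DESeq2 called 0, and 0.00758% of all 13193 genes passed. An unadjusted p under 0.05 (limma) was reached by 0 of the 19 and by 574 of all genes. *Col6a3* was 1.14, 0.915, 7.90 and 1.22 FPKM in WT and 0.733, 0.841, 0.897 and 0.690 FPKM in KO mice, the KO mice all lower, as for 1.4% of all genes, and its log2 difference was -0.75 ± 0.45 (adjusted p = 0.996, limma). Differences of the other main chains were -0.84 for *Col1a1*, -0.55 for *Col1a2*, -0.82 for *Col3a1*, -0.28 for *Col5a1*, -0.39 for *Col5a2*, 0.13 for *Col5a3*, -0.60 for *Col4a1* and -0.44 for *Col4a2*, from groups that include mouse 182. They were -0.49 for *Col6a1*, -0.40 for *Col6a2*, 0.067 for *Col15a1* and -0.035 for *Col18a1*. Without mouse 182 they were -0.11 for *Col1a1*, -0.07 for *Col1a2*, -0.15 for *Col3a1*, -0.22 for *Col4a1*, -0.11 for *Col4a2*, -0.01 for *Col6a1*, 0.01 for *Col6a2* and -0.22 for *Col6a3*. The test of a diet effect that differs by genotype gave 0 of 17 (0 by edgeR and DESeq2, 0.0151% of all genes). At an unadjusted p under 0.05 it gave 1 of the 17, *Col5a3* (-0.39 ± 0.15, adjusted p = 0.646, limma), and 811 of all 13248 genes. For the other main chains tested the estimates were 0.13 for *Col1a1*, 0.02 for *Col1a2*, 0.12 for *Col3a1*, -0.10 for *Col5a1*, 0.072 for *Col4a1* and 0.14 for *Col4a2*. They were -0.039 for *Col6a1*, 0.11 for *Col6a2*, 0.46 for *Col6a3*, 0.018 for *Col15a1* and 0.074 for *Col18a1*. Without mouse 182 the sign turned for *Col1a1* (-0.60), *Col1a2* (-0.46), *Col3a1* (-0.55), *Col4a1* (-0.30), *Col4a2* (-0.19), *Col6a2* (-0.30), *Col6a3* (-0.07) and *Col15a1* (-0.05).

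Among the pathway lists of liver, the lysyl hydroxylase *Plod1* and the galactosyltransferase *Colgalt1* were higher on HFD in WT (0.39 and 0.28) and in KO mice (0.30 and 0.48), and no crosslinking or propeptide cleavage gene passed. In WT liver 2 of 11 hydroxylation and glycosylation genes tested were higher and 2 lower, 2 of 10 chaperone and secretion genes higher and 1 lower, 1 of 12 fibril partners higher and 1 of 7 receptor and uptake genes lower, where 25.3% of all genes passed. In KO liver 2 of 11 hydroxylation and glycosylation genes were higher and 1 lower and 2 of 9 chaperone and secretion genes higher and 2 lower, with 0 called in the other lists, where 22.2% of all genes passed.

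The remaining 15 collagens were below the filter in every comparison and had at most 0.552 FPKM in any library. They include the cartilage chains *Col2a1*, *Col9a1*, *Col9a2*, *Col9a3*, *Col10a1*, *Col11a1* and *Col11a2*, *Col4a3* of kidney and lung basement membranes, *Col17a1* of hemidesmosomes, *Col6a4*, *Col19a1*, *Col22a1*, *Col24a1*, *Col25a1* and *Col26a1*. *Col9a1* and *Col26a1* had 0 reads in every liver library, which allows up to 3 reads per library. *Col7a1*, the anchoring fibril chain, passed the filter in WT visWAT through mouse 183 alone, at 0.0710, 0.0812, 0.183 and 3.54 FPKM on NCD and 0.205, 0.202, 0.116, 0.134 and 0.136 FPKM on HFD.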

How the data were processed

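Poly(A) RNA libraries from both tissues of 18 mice were grouped by their labels. Reads were processed by the authors with fastp (trimming), HISAT2 (alignment to GRCm39, also called mm39) and featureCounts 1.5.0-p3 (counting). Strandedness and annotation release are not given in the sources used here. The deposited table gives FPKM per gene and library, and unnormalized counts were deposited for genes that appear in the comparison tables. Log2 fold changes and p-values deposited there are the authors' own and were not used, nor were 72 columns per sample of normalized or repeated values. FPKM turned back into whole reads for 100% of values (within 0.01 read). Divided by the reads on genes, the size behind the FPKM was 1.01 to 1.40 for visWAT libraries and 0.737 to 0.812 for liver libraries, so they carry a scaling between libraries. Replicates come from separate mice, and the chi-square per gene between replicates was 9.82 or higher.

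limma 3.58.1 (R 4.3.3; trend) was fitted to log2(FPKM + 1) of all genes with a mean of at least 0.5 FPKM, with the 2 groups compared, with all 18 libraries of a tissue for the interaction, and with mouse as a block between tissues. Adjusted p-values are Benjamini-Hochberg over all genes tested. The FPKM unit kept count models as alternatives (edgeR 4.0.16 and DESeq2 1.42.0 on recovered reads). Also tried were 0.1 as pseudocount, no filter, a minimum of 1 FPKM, an equal sum per library (TPM scale), all 4 groups in one fit, and leaving out mice. Scripts were tested on simulated data. The mouse number pairs tissues by the labels. Deviations from group means of a mouse's 2 tissues correlated at -0.0516 to 0.223 (median 0.0283) over 14657 genes. Chain ratios were compared with scipy 1.17.1.

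The members, classes, pathway and marker lists were chosen with earlier results of these data known. A panel (*Col1a1*, *Col1a2*, *Col3a1*, *Col5a1*, *Col5a2*, *Col5a3*, *Col4a1*, *Col4a2*, *Col6a1*, *Col6a2*, *Col6a3*, *Col15a1* and *Col18a1*) is named in every comparison, with at most the 5 largest rises and 5 largest falls among collagens called at 1 FPKM or more. Other collagens named, such as *Col5a3* with *Col16a1* and *Col6a5* between genotypes, and example genes of the pathway lists were chosen after their values were seen. The bound of 3 reads on a count of 0 covers counting error only. SDs and limma standard errors reflect the spread between mice.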

Additional observations from a re-analysis of the deposited data

Results flagged for a closer look

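Single mice that stood far from the others of their group were looked for in 19 collagens and 8 groups (152 sets of 4 or 5 mice) with Dixon's criterion, which chance meets in about 1 of 20 sets, and 19 sets met it. Of these, 10 were the liver of WT NCD mouse 182, with *Col1a1* at 17.3 FPKM, *Col1a2* at 7.11 FPKM, *Col3a1* at 24.2 FPKM, *Col4a1* at 19.4 FPKM, *Col4a6* at 0.369 FPKM, *Col5a1* at 3.77 FPKM, *Col5a2* at 3.30 FPKM, *Col6a1* at 10.5 FPKM, *Col6a2* at 4.25 FPKM and *Col6a3* at 7.90 FPKM, each the highest of its group. In the same library *Col27a1* was the lowest of its group without meeting the criterion. The other liver values were *Col4a6* at 0.325 FPKM and *Col23a1* at 0.106 FPKM in KO NCD mouse 166 (both highest), *Col5a2* at 0.235 FPKM and *Col18a1* at 180.2 FPKM in KO NCD mouse 199 (both lowest), *Col23a1* at 0.288 FPKM in WT HFD mouse 155 and *Col16a1* at 0.803 FPKM in KO HFD mouse 152 (both highest). In visWAT they were *Col4a2* at 61.5 FPKM in WT NCD mouse 183 (lowest), *Col16a1* at 10.5 FPKM in WT HFD mouse 164 (lowest) and *Col4a6* at 0.831 FPKM in KO HFD mouse 152 (highest).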

How the results depend on the processing

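Of 86 counts of called collagens under alternatives that leave no single mouse out, 84 stayed within 1.5 times the reported count. The exceptions were 1 call with all 4 groups in one fit (diet, WT liver) and 2 calls by DESeq2 (genotype on HFD, liver). For genotype, interaction and chain ratios the reported count was 0, and staying within that limit meant only staying at 0. No chain ratio could pass by itself at these group sizes. DESeq2 also called 3 collagens, 1 higher and 2 lower, for diet in WT liver. The count between tissues was 24 with the mouse block and 24 with no replicate block, so the pairing changed no count. Within a tissue, groups share no mouse number. Leaving out 1 mouse gave 16 to 17 calls for diet in WT visWAT, 10 to 16 in KO visWAT, 2 to 4 in WT liver (4 without mouse 182), 2 to 3 in KO liver, 23 to 24 between tissues and 0 to 0 for genotype, interaction and chain ratios. Between tissues the count was 36 with no filter.

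Without mouse 182 the sign turned for 5 WT liver diet estimates and 8 liver interaction estimates of main chains, and without mouse 182 or 183 for some NCD genotype estimates, as given with those results. Further sign changes were these. *Col18a1* between genotypes on HFD became -0.067 in visWAT and -0.030 in liver on the TPM scale, and ranged from -0.015 (without KO HFD mouse 157) to 0.098 in visWAT when 1 mouse was left out. *Col15a1* ranged from -0.12 to 0.067 in visWAT (0.030 without WT HFD mouse 164, 0.067 without KO HFD mouse 151, 0.013 without KO HFD mouse 156) and from -0.039 (without KO HFD mouse 157) to 0.21 in liver. *Col6a1* ranged from -0.14 to 0.073 and *Col6a2* from -0.22 to 0.026 in visWAT, both highest without KO HFD mouse 156. *Col14a1* between tissues became 0.52 (TPM scale). In KO visWAT the call of *Col1a2* was lost without mouse 166 (adjusted p = 0.0549) and that of *Col4a2* without mouse 179 (0.0519, limma). That of *Col15a1* in WT liver was lost without mice 182 and 183 (0.0641). The causes were not tested. With 4 or 5 mice per group and the spread of KO mice on HFD, the data limit the size of genotype difference that can be called, and the library labelled mouse 182 cannot be checked further here. The alternative without WT mice 182 and 155 was chosen after seeing the data.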
